A study of Danio rerio with 6 samples.

Results

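The genes of oxidative phosphorylation were followed here in the olfactory organ of adult zebrafish, as the mitochondrially encoded subunits against the nuclear ones and by complex. Members were all genes whose name in the deposited count table begins with mt-nd, mt-co, mt-atp, mt-cyb, sdha to sdhd, uqcr, cox4 to cox8 or atp5, or with ndufa, ndufb, ndufc, ndufs or ndufv and a number, in upper or lower case. This gave 103 of 33737 genes, of which 13 are encoded in mitochondrial DNA and 90 in the nucleus. The 13 are 7 subunits of complex I, 1 of complex III, 3 of complex IV and 2 of complex V. The nuclear members comprise 36 genes of complex I, 6 of complex II, 7 of complex III, 18 of complex IV, 17 of complex V and 6 further genes that the names also caught. Of these 6, sdhaf1, sdhaf2, sdhaf3 and sdhaf4 help to assemble complex II, and atp5s and ATP5SL now carry the symbols dmac2l and dmac2.

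The study asked whether early life with an odorant changes gene expression in the adult olfactory organ. Both groups were wild-type fish of an AB derived line. The PEA group received the odorant phenyl ethyl alcohol daily during the first 3 weeks of development and the control group received distilled water. According to the sample labels all fish were killed at 6 months, whereas the methods of the study give an older range of ages. Each group has 3 libraries of total RNA from dissected olfactory epithelium, the labels speak of 10 fish per experimental group, and how many fish went into 1 library is not stated, nor is their sex. The exposure was done in biological triplicate, and the libraries are numbered 1 to 3 in each group. The sample titles place a control and a PEA library under each number, as in Group 1 Control and Group 1 PEA exposed. Whether libraries of the same number share an exposure run is not stated.

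Oxidative phosphorylation passes electrons from NADH through complex I, or from succinate through complex II, to complex III, cytochrome c and finally complex IV, which reduces oxygen. Complexes I, III and IV pump protons across the inner mitochondrial membrane, and complex V, the ATP synthase, uses the return flow to make ATP. All complexes but complex II are built from subunits of both genomes. The mitochondrial subunits are cut from long polycistronic transcripts of the circular mitochondrial genome, whereas each nuclear gene has its own promoter and its protein is imported. Olfactory sensory neurons spend ATP on ion gradients and signalling in their cilia, and the fish olfactory organ also holds ionocytes, a cell type rich in mitochondria.

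Total counts ran from 45153814 to 49085973 per control library and from 43590575 to 46153505 per PEA library. Control 1 and PEA 1 stood apart from the others in fkbp5, a gene induced by glucocorticoids, with 61019 and 71344 counts. The counts were 5078 and 5009 in controls 2 and 3 and 13386 and 15213 in PEA 2 and 3. Results are therefore also given for the libraries numbered 2 and 3 alone, where fkbp5 was still higher in PEA. The CPM (counts of a gene scaled by the library's normalized size) was summed over markers of olfactory sensory neurons (10 of 10 tested). The sum was between 2583 and 2682 in the control libraries and between 2573 and 2859 in the PEA libraries. Over all 6 libraries ompb, the olfactory marker protein gene, was at 321 to 385. Some other markers varied more. CPM of adcy3b was 52.2, 82.0 and 75.7 in controls 1 to 3 and 62.5, 49.9 and 82.9 in PEA 1 to 3. CPM of gnal was 108, 136 and 133 in control and 121, 103 and 141 in PEA, and of trpc2b 187, 219 and 245 and 216, 212 and 252. All of these were lowest in control 1 among controls and in PEA 2 among PEA. Of the 10 markers, 3 were highest in control 1 among controls and 1 in PEA 2 among PEA. The 3 were gng13b, cnga4 and stoml3b. CPM of gng13b, the largest part of the sum, was 1331, 1276 and 1174 in control and 1217, 1368.5 and 1374 in PEA. CPM of cnga4, the next largest, was 497, 470 and 468 in control and 449, 475 and 486 in PEA. For the 15 skeletal muscle markers the summed CPM was between 10.4 and 15.9 in control and between 10.31 and 13.7 in PEA. In bulk RNA, fewer cells of a type and less RNA per cell cannot be told apart.

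Counts from the 13 mitochondrially encoded genes made up a larger share of the library in every PEA library than in any control library. The share was 6.23%, 6.81% and 6.91% in controls 1 to 3 and 7.48%, 9.68% and 7.25% in PEA 1 to 3. The groups did not overlap, but the gap between control 3 and PEA 3 was small and PEA 2 lay far above the rest. The means were 6.65% ± 0.369 in control and 8.14% ± 1.34 in PEA (SD, n = 3 each), a difference of 1.49 percentage points (SE 0.804) with a 2-sided exact permutation p of 0.10, the smallest that 3 against 3 libraries allow, or 0.15 after Benjamini-Hochberg adjustment over 3 such tests. Without PEA 2 the difference was 0.715 percentage points. Among the libraries numbered 2 and 3 it was 1.61. The summed CPM of 5 sustentacular and epithelial markers separated the same libraries in the other direction. It was 5272, 4679 and 4526 in controls 1 to 3 and 4347, 4367 and 4492 in PEA 1 to 3. Of the 5 markers, 0 separated the groups on their own. The most abundant, krt5, was at 2475, 2400 and 2239 CPM in control and 1814, 1816 and 2249 in PEA. Its log2 fold change was -0.28, beside -0.16 for six4b, -0.06 for krt18, -0.02 for krt8 and 0.05 for epcam. The part of these markers in the result was not tested.

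The 90 nuclear members together showed no such separation. They took 1.24%, 1.12% and 1.11% of counts in controls 1 to 3 and 1.11%, 1.15% and 1.14% in PEA 1 to 3. Control 1 was the highest of the 6 and the groups overlapped, with a difference of -0.0256 percentage points (SE 0.0453, exact permutation p = 0.90).

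Within a library, the log2 ratio of mitochondrial to nuclear counts sets the genomes against each other without any scaling between libraries. It was 2.32, 2.60 and 2.64 in controls 1 to 3 and 2.76, 3.07 and 2.67 in PEA 1 to 3. Every PEA library again lay above every control library, by a margin of 0.03 between control 3 and PEA 3. The means were 2.52 ± 0.17 and 2.83 ± 0.21 (SD, n = 3 each), and the difference of 0.31 (SE 0.16) had an exact permutation p of 0.10, or 0.15 adjusted over the 3 tests, so it did not pass a threshold that this design cannot reach. It was 0.19 without PEA 2 and 0.25 among the libraries numbered 2 and 3.

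**Figure D1:**
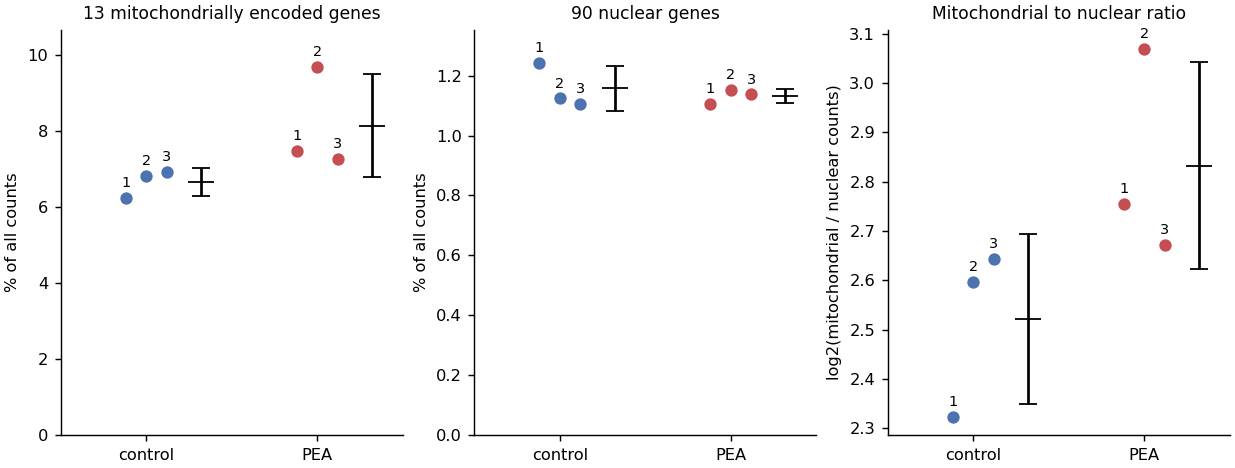
Points are the 6 libraries, labelled with their numbers, and bars are the mean ± SD of the 3 libraries of a group; the left and middle panels give the percent of all counts from the 13 mitochondrially encoded and the 90 nuclear genes, and the right panel the log2 ratio between them on an axis that does not start at 0. PEA 2 reaches 9.68% in the left panel, and the nuclear share stays between 1.11% and 1.24%.

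Gene by gene, no member passed the test. Of the 103 members, 100 had enough counts to be tested, all 13 mitochondrial and 87 nuclear ones. In the quasi-likelihood test of edgeR, with Benjamini-Hochberg adjustment over 20628 genes, 0 members had an adjusted p under 0.05, against 0.0% of all genes tested. DESeq2 called 0 members and 5 of the 27192 genes to which it gave an adjusted p, or 0.0184%. At an unadjusted p under 0.05, edgeR had 4 members higher and 1 lower in PEA, where 0.805% of all genes were higher and 0.853% lower, and DESeq2 had 5 members higher and 1 lower, where 0.669% of the genes it tested were higher and 0.61% lower. The 4 higher members were all mitochondrially encoded, which is 4 of 13. Counting only whether the groups overlapped in CPM, 5 members had all PEA libraries above all control libraries, against 2.56% of all genes, and 2 had all PEA libraries below, against 2.94%. The 5 were mt-co1, mt-co2, mt-co3, mt-nd5 and mt-nd6. The genes of 1 mitochondrial genome share transcripts and libraries, so they are not independent observations of the exposure.

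The 3 mitochondrial subunits of complex IV, which form its catalytic core, each had every PEA library above every control library. CPM of mt-co1, the subunit that binds the heme and copper of the oxygen-reducing site, was 17772, 18617 and 19532 in control and 21699, 33817 and 21050 in PEA. CPM of mt-co2, which takes electrons from cytochrome c, was 9419, 9088 and 9387 in control and 10453, 14070 and 10204 in PEA. CPM of mt-co3, the third core subunit, was 12233, 11352 and 12335 in control and 13353, 18317 and 12861 in PEA. In each of the 3 genes PEA 2 was the highest library and PEA 3 the PEA library closest to control. The log2 fold changes were 0.45 (SE 0.18), 0.32 (SE 0.13) and 0.31 (SE 0.14), each with an adjusted p of 1.00 in edgeR, and without PEA 2 they were 0.20, 0.15 and 0.13.

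Among the 7 mitochondrial subunits of complex I, which form its proton-pumping membrane arm, only mt-nd5 and mt-nd6 had groups that did not overlap. CPM of mt-nd5 was 1711, 2122 and 2130 in control and 2276, 3304 and 2261 in PEA. CPM of mt-nd6, the only protein gene on the other strand of the mitochondrial genome, was 1425, 1305 and 1352 in control and 1472, 2003 and 1562 in PEA. The log2 fold changes were 0.40 (SE 0.17) and 0.30 (SE 0.13), adjusted p of 1.00 in edgeR for both, and without PEA 2 they were 0.19 and 0.15. The 5 other genes of this arm overlapped between the groups. Their log2 fold changes were 0.27 for mt-nd1, 0.25 for mt-nd2, 0.31 for mt-nd4l, 0.22 for mt-nd4 and 0.13 for mt-nd3, with SEs from 0.13 to 0.18. Without PEA 2 these were 0.09, 0.08, 0.12, 0.05 and -0.01 in the same order, and without control 1 the value of mt-nd4l was 0.19. CPM of mt-nd3 was 811, 731 and 669 in control and 778, 950 and 691 in PEA, so control 1 exceeded both PEA 1 and PEA 3.

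The single mitochondrial subunit of complex III is cytochrome b, which carries the quinone sites. CPM of mt-cyb was 5990, 5341 and 6272 in control and 7131, 8402 and 5931 in PEA. PEA 3 lay among the control libraries, and the log2 fold change was 0.29 (SE 0.14, edgeR adjusted p = 1.00), or 0.15 without PEA 2. The mitochondrial subunits of ATP synthase had the smallest median log2 fold change of the complexes. CPM of mt-atp6, which forms the proton path beside the rotor, was 6046, 6142 and 5310 in control and 6177, 7389 and 5643 in PEA. CPM of mt-atp8, a small subunit of the stator, was 840, 867 and 797 in control and 964, 1070 and 771 in PEA. PEA 3 was below control 1 and control 2 in both genes, and for mt-atp8 it was the lowest of all libraries. The log2 fold changes were 0.13 (SE 0.12) and 0.16 (SE 0.13), or 0.02 and 0.05 without PEA 2.

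All 13 mitochondrial genes had a log2 fold change above 0, from 0.13 to 0.45 with a median of 0.29, beside a median of 0.00 over the 87 nuclear members and -0.0048 over all genes tested. PEA 2 was the highest PEA library for 13 of 13. Without PEA 2 the median of the 13 was 0.12, and among the libraries numbered 2 and 3 it was 0.31. By complex, the mitochondrial medians were 0.26 for complex I, 0.32 for complex IV and 0.15 for complex V, and without PEA 2 they were 0.09, 0.15 and 0.04. Differences between these medians were not tested. The nuclear medians were 0.04, 0.01, -0.01, -0.0045 and 0.01 for complexes I to V. The median of nuclear complex I became 0.19 when only the libraries numbered 2 and 3 were used, and that of all nuclear members 0.14.

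**Figure D2:**
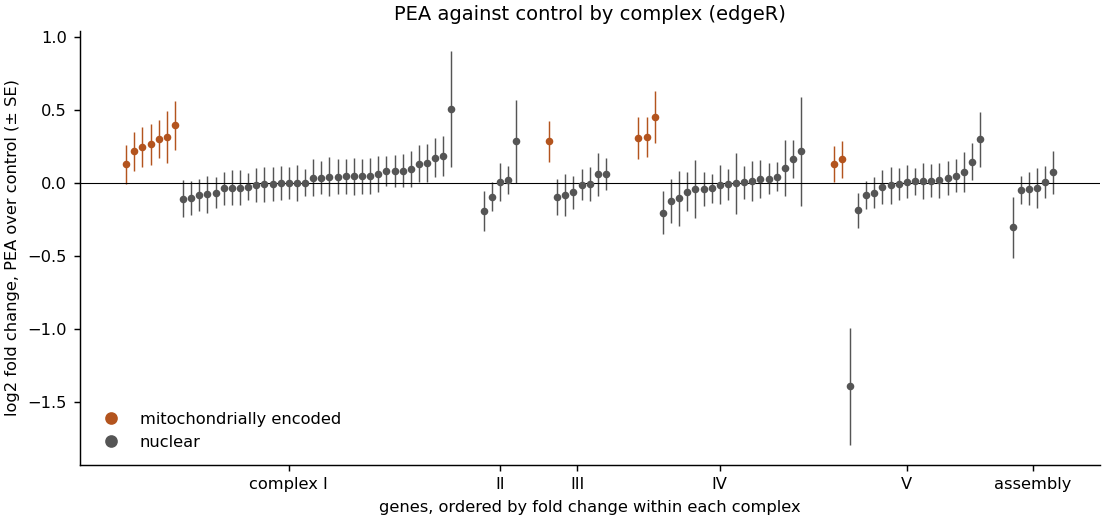
Each point is 1 of the 100 tested genes with its log2 fold change in PEA over control from edgeR, and bars are ± 1 SE; genes are ordered by fold change within each complex, the mitochondrially encoded ones in orange and the nuclear ones in grey, and the last block holds the 6 further genes. The 13 orange points lie between 0.13 and 0.45. The nuclear points scatter about 0, and some reach the orange range or beyond. The farthest from 0 are ATP5J (3 of 3) at -1.39 and ndufa4 at 0.51, both genes of low counts.

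The mitochondrial to nuclear ratio was also taken inside each complex that mixes both genomes. For complex IV its log2 was 4.05, 4.32 and 4.38 in control and 4.50, 4.87 and 4.42 in PEA, a difference of 0.35 with groups that did not overlap. For complex I it was 1.99, 2.38 and 2.32 in control and 2.37, 2.64 and 2.36 in PEA, a difference of 0.23 with overlap. In both complexes PEA 2 stood highest. For complex III it was 2.95, 3.08 and 3.34 in control and 3.46, 3.54 and 3.23 in PEA, a difference of 0.29. For complex V it was 0.24, 0.51 and 0.35 in control and 0.54, 0.64 and 0.36 in PEA, a difference of 0.15. Control 1 had the lowest ratio of the 6 libraries and PEA 2 the highest in all 4 complexes. These 4 ratios were given no test of their own.

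The composition of the mitochondrial counts was largely even between the groups. Counts are not corrected for length, so a gene's share is compared here only with itself across libraries. The share of mt-co1 was 27.3%, 28.5% and 29.1% of the mitochondrial counts in control and 29.3%, 32.9% and 29.7% in PEA. These groups did not overlap, though PEA 1 exceeded control 3 by less than the controls differed among themselves. The share of mt-nd4 was 5.07%, 5.18% and 5.17% in control and 4.64%, 4.67% and 5.04% in PEA, lower in every PEA library. No other mitochondrial gene had a share that separated the groups, and these separations were not tested. Shares within a library depend on each other, so a higher share of mt-co1 lowers the rest. The log2 fold change of mt-nd4 itself was 0.22. The share of mt-atp6 was 9.28%, 9.41% and 7.92% in control and 8.34%, 7.19% and 7.96% in PEA, with control 3 among the PEA values. Without mt-co1 the mitochondrial share of all counts was still higher in every PEA library, at 4.53%, 4.86% and 4.90% in control and 5.29%, 6.50% and 5.10% in PEA.

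**Figure D3:**
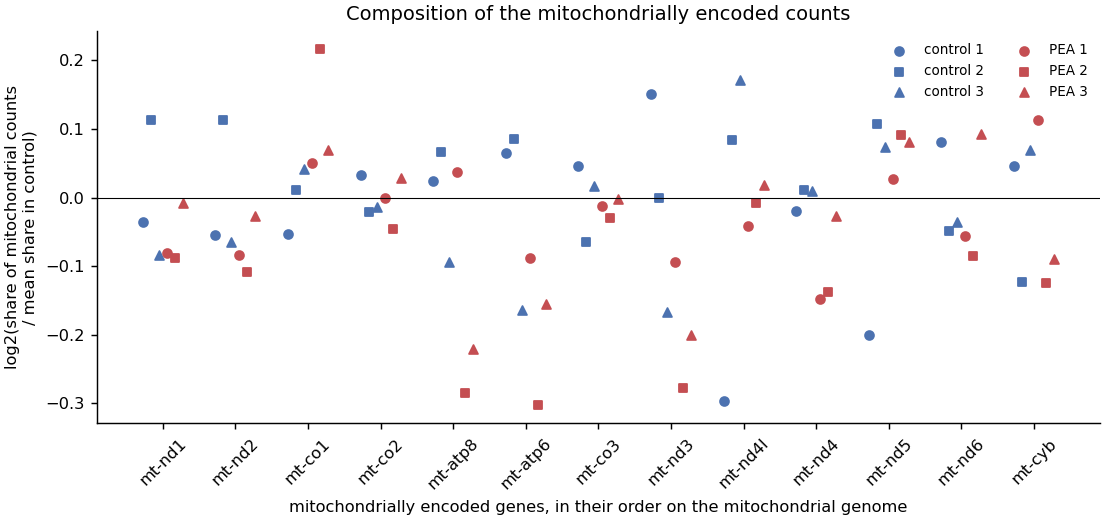
For each of the 13 genes, in their order on the mitochondrial genome, points give the log2 of its share of the mitochondrial counts in a library over its mean share in control, with control in blue, PEA in red and the library number as the marker's shape. The mt-co1 points of PEA lie above those of control, from 29.3% to 32.9% against 27.3% to 29.1%, and those of mt-nd4 lie below.

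Of 6 pairs of mitochondrial genes that lie near each other on the genome, 0 had log2 ratios that separated the groups. The ratio of mt-co1 to mt-atp6 differed most, at 1.56, 1.60 and 1.88 in control and 1.81, 2.19 and 1.90 in PEA, a difference of 0.29 with control 3 above PEA 1. The overlapping genes mt-atp8 and mt-atp6 kept a log2 ratio between -2.87 and -2.68 in all 6 libraries. For mt-nd4l and mt-nd4, which also overlap, it was -3.05 in control 1 and -2.73 to -2.62 in the other 5. For mt-nd6 and mt-nd5, on opposite strands, it was -0.26 in control 1 and -0.72 to -0.53 elsewhere. Control 1 therefore stood apart in the last pair as in the one before. How the counting assigned reads in overlapping genes, and whether it used strand, is not given in the sources used here, so the separate values of these neighbours are uncertain.

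The nuclear members moved as a group between libraries of the same condition. Relative to each gene's own mean over the 6 libraries, the median nuclear member was at 0.19, -0.10 and -0.10 on the log2 scale in controls 1 to 3 and at -0.06, 0.13 and -0.05 in PEA 1 to 3. Control 1 was the highest control library for 82 of 87 nuclear members, against 38.1% of all genes, and PEA 2 the highest PEA library for 71 of 87, against 32.8%. The mitochondrial genes did the second but not the first, with control 1 highest for 3 of 13. This regularity was looked at after the values had been seen. Control 1 and PEA 2 also had the lowest normalization factors, 0.956 and 0.942, where the other libraries had 1.01 to 1.04. With CPM on unadjusted library totals the numbers were 77 and 55 of 87, against 25.2% and 17.9% of all genes. The summed CPM of 10 ionocyte markers was 864, 778 and 760 in controls 1 to 3 and 777, 842 and 755 in PEA 1 to 3, highest in control 1 and PEA 2 as well. The pump gene atp1a1a.1 made up most of that sum, at 524, 445 and 418 CPM in control and 463, 477 and 430 in PEA. Control 1 was the highest control library for 4 of the 9 markers tested and PEA 2 the highest PEA library for 6. Among controls slc12a10.2 was lowest in control 1. Of the 9 markers, 1 had all PEA libraries above all control libraries, against 2.56% of all genes. This was atp1a1a.5, at 40.0, 41.7 and 44.3 CPM in control and 46.7, 51.8 and 55.8 in PEA. Its log2 fold change was 0.29, and edgeR did not call it. The part of these cells in the result was not tested.

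**Figure D4:**
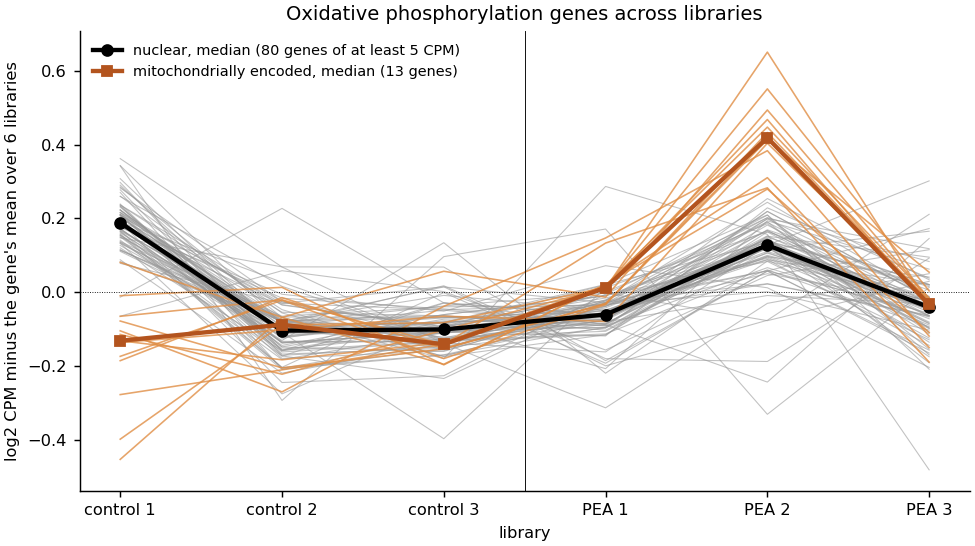
Thin lines are single genes across the 6 libraries, as log2 CPM minus the gene's mean over the libraries, with the 13 mitochondrially encoded genes in orange and the 80 nuclear genes of at least 5 CPM in grey, and thick lines are the medians. The nuclear median peaks in control 1 and PEA 2. The mitochondrial median is -0.13, -0.09 and -0.14 in controls 1 to 3 and 0.01, 0.42 and -0.03 in PEA 1 to 3.

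In complex I, all 34 tested nuclear members were highest in control 1 among controls and 32 in PEA 2 among PEA. CPM of ndufv1, which holds the flavin that accepts electrons from NADH, was 266, 238 and 249 in control and 243, 269 and 243 in PEA. CPM of ndufs1, an iron-sulfur subunit of the same arm, was 234, 203 and 207 in control and 207, 221 and 204 in PEA. CPM of ndufb8, an accessory subunit of the membrane arm, was 164, 128 and 130 in control and 135, 157 and 144 in PEA. All 3 repeat the shape of the group, with overlap between control and PEA. Among nuclear members of the complex, the lowest p values belonged to the accessory subunits ndufb3 and ndufa2. Their log2 fold changes were 0.19 (SE 0.14) and 0.18 (SE 0.13), both with an edgeR adjusted p of 1.00. CPM of ndufb3 was 70.9, 57.3 and 60.6 in control and 59.6, 72.8 and 82.2 in PEA, and PEA 1 lay below 2 control libraries. Duplicate ndufs8b was nearly silent, with 2 to 11 counts per library, and NDUFA4L2 (1 of 2) had 1 count in PEA 1 and 0 elsewhere, where a count of 0 allows up to 0.0697 CPM in a library, so neither was tested. Low counts were also found for ndufa4 (now ndufa4b), at 0.502 to 1.51 CPM. The log2 fold change of ndufa4 was 0.51 (SE 0.40), the highest of any member tested, with groups that overlapped. Its mammalian counterpart is now assigned to complex IV.

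Complex II, the succinate dehydrogenase shared with the citric acid cycle, is the only one with no mitochondrial subunit. CPM of sdha, the flavoprotein that oxidizes succinate, was 339, 287 and 284 in control and 287, 293 and 273 in PEA. CPM of sdhb, the iron-sulfur subunit, was 193, 144 and 154 in control and 135, 134 and 163 in PEA. PEA 1 and PEA 2 were the lowest of the 6 libraries for sdhb, and PEA 3 lay within the control range, with a log2 fold change of -0.19 (SE 0.14, edgeR adjusted p = 1.00), or -0.05 without control 1. CPM of sdhc, a membrane anchor, was 75.6, 66.1 and 66.6 in control and 67.4, 75.4 and 68.6 in PEA. The other anchor is encoded by a pair of duplicates. Of these sdhdb was at 52.8 to 68.0 CPM and sdhda at 0.469 to 0.773 CPM, with a log2 fold change of 0.29 (SE 0.28) for sdhda. The copy SDHB (2 of 2) had 0 counts in all 6 libraries.

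In complex III all 7 nuclear members were highest in control 1 among controls and in PEA 2 among PEA. CPM of uqcrc1, a core protein, was 214, 178 and 178 in control and 187, 201 and 177 in PEA. CPM of uqcrc2b, the other core protein, was 164, 137 and 132 in control and 137, 150 and 127 in PEA. CPM of uqcrh, the hinge protein near cytochrome c1, was 149, 123 and 119 in control and 120, 141 and 128 in PEA. None of the 3 separated the groups. The Rieske iron-sulfur protein uqcrfs1 had a log2 fold change of -0.10 (SE 0.12), which turned to 0.03 among the libraries numbered 2 and 3. For the duplicate core protein uqcrc2a it was 0.06 (SE 0.11), which turned to -0.01 without PEA 2. The quinone-binding subunit uqcrb was at 17.4 to 24.2 CPM.

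In complex IV, 17 of 18 nuclear members were highest in control 1 among controls but 9 of 18 in PEA 2 among PEA. CPM of COX5B (2 of 3) was 447, 377 and 387 in control and 391, 438 and 421 in PEA. CPM of cox4i1, the common form of a regulatory subunit, was 406, 330 and 334 in control and 349, 390 and 336 in PEA. CPM of cox8a, a small membrane subunit, was 396, 329 and 328 in control and 341, 376 and 359 in PEA. The control range of each gene contained all its PEA values. Among nuclear members of the complex, the lowest p values were those of cox8b and COX7A2 (2 of 2). Their log2 fold changes were -0.20 (SE 0.15) and 0.16 (SE 0.13), both at an edgeR adjusted p of 1.00. Among the libraries numbered 2 and 3 the value of cox8b was 0.05. The matrix-side subunit gene cox5aa was at 0.402 to 0.795 CPM. No gene named cox5ab, its duplicate, was among the members, so this value does not give the level of the subunit as a whole.

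Several complex IV and complex V subunits have tissue forms or duplicates, so the balance between forms was followed in 12 pairs. In 0 of 12 pairs did the log2 ratio separate the groups, and the differences ran from -0.23 for cox8b over cox8a to 0.14 for COX7A2 (2 of 2) over cox7a2a. Counts of cox8b made up 9.08%, 8.92% and 7.86% of the cox8a and cox8b counts in control and 6.78%, 7.42% and 8.15% in PEA, where PEA 3 exceeded control 3. The hypoxia-linked form cox4i2 took 16.7%, 17.1% and 17.4% of the counts of itself and cox4i1 in control and 17.1%, 14.9% and 18.0% in PEA, and cox4i1l took 2.91% to 4.54% of its pair with cox4i1. For cox7a1, the muscle form of its subunit in mammals, the share beside cox7a2a was 17.7%, 18.6% and 17.3% in control and 21.3%, 17.8% and 13.6% in PEA, a wider spread in PEA than in control. The share of cox7a3 (now COX7A2L, so not necessarily a form of the same subunit) beside cox7a2a was 38.8% to 43.2%. Neither share separated the groups. For cox6a2 beside cox6a1 it was 1.28% to 1.74%, and for cox6b1 beside cox6b2 it was 12.4% to 16.1%. COX5B (1 of 3) and cox5b2 each made up at most 2.46% of their pair with COX5B (2 of 3). The proton-carrying ring subunit of ATP synthase is encoded by several atp5g genes, and atp5g1 and atp5g3a took 33.8% to 36.0% and 19.3% to 20.9% of their pairs with atp5g3b. Near-identical copies can share reads, so these shares are uncertain wherever the counting could split them.

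**Figure D5:**
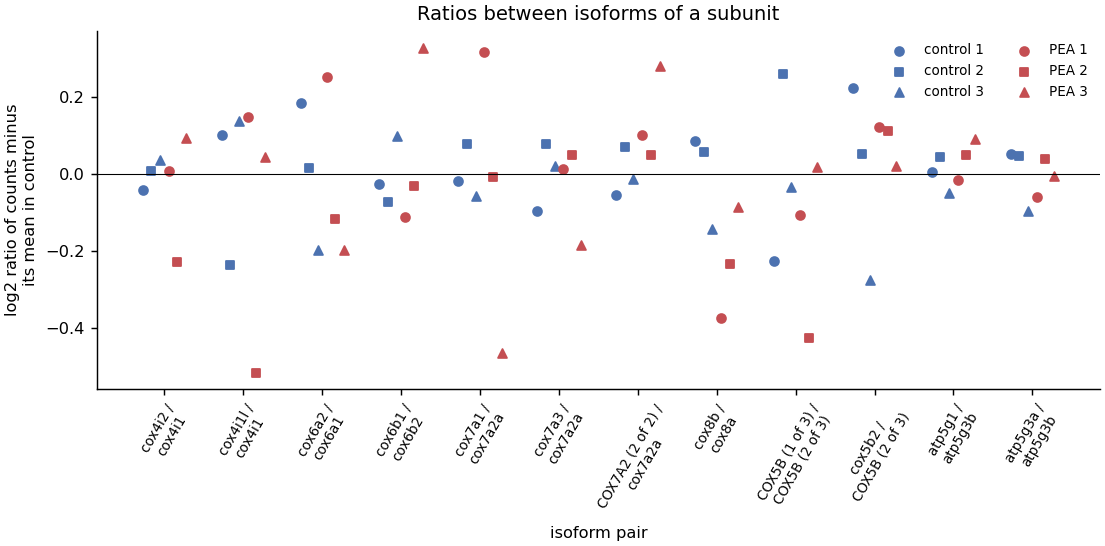
For each of the 12 pairs, points give the log2 ratio of the counts of the first gene to the second in a library minus the mean ratio in control, with control in blue, PEA in red and the library number as the marker's shape. Blue and red points overlap in all 12 pairs, including cox8b over cox8a, whose mean difference is -0.23.

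In complex V, 15 of 17 nuclear members were highest in control 1 among controls and 16 in PEA 2 among PEA. CPM of atp5b, the catalytic beta subunit, was 1374, 1226 and 1101 in control and 1165, 1222 and 1151 in PEA. CPM of atp5a1, the alpha subunit, was 1214, 1058 and 1037 in control and 1012, 1063 and 1047 in PEA. CPM of atp5g3b, a ring subunit, was 513, 423 and 428 in control and 434, 492 and 433 in PEA. The groups overlapped in all 3. Only in copies of the stalk subunit gene ATP5J did every PEA library lie below every control library. ATP5J (3 of 3) had 37, 23 and 53 counts in control and 15, 15 and 10 in PEA. Its log2 fold change was the largest in size of any member tested, at -1.39 (SE 0.40, edgeR adjusted p = 1.00), at 0.212 to 1.07 CPM. CPM of ATP5J (2 of 3) was 10.6, 10.03 and 10.03 in control and 8.41, 9.95 and 8.58 in PEA, where PEA 2 and control 3 were nearly equal. The main copy, atp5j, was at 245, 183 and 193 in control and 200, 246 and 209 in PEA. For ATP5J2, the symbol of another subunit, of the membrane part, the log2 fold change was 0.30 (SE 0.19). The 6 further genes had log2 fold changes from -0.30 to 0.07.

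Other genes of the pathway were described from 9 lists. Of these, the list of mitochondrial rRNA and tRNA matched 0 genes of the table, so these RNAs were not analysed here. In the other 8 lists 0 genes passed the edgeR test and 0 had an unadjusted p under 0.05. The 64 tested genes of mitochondrial ribosomal proteins, which translate the 13 mitochondrial mRNAs, had a median log2 fold change of -0.02, with mrpl21 at -0.35 (SE 0.16) and mrpl20 at -0.18 (SE 0.13), or -0.17 and -0.02 without control 1. Among 20 genes of mitochondrial transcription and RNA stability the median was -0.01. Of these tfb1m, an rRNA methyltransferase, was at 0.22 (SE 0.15), or 0.11 without PEA 2, and trmt10c, part of mitochondrial RNase P, at -0.17 (SE 0.13), or -0.06 without PEA 1. The 7 regulators of mitochondrial genes had a median of -0.05, with yy1b at -0.10 (SE 0.11) and yy1a at -0.07 (SE 0.08).

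Assembly factors had a median of 0.01 over 35 genes, with sco2, a copper chaperone of complex IV, at -0.17 (SE 0.12) and lyrm1 at -0.12 (SE 0.09). Cytochrome c and its reductase partner are chain parts that the names did not catch, and cycsb was at -0.03 (SE 0.15) and cyc1 at -0.03 (SE 0.12). The median was -0.05 over 20 import genes, with the translocase gene timm17b at 0.32 (SE 0.27), or 0.02 without PEA 3, and the intermembrane chaperone timm8a at -0.17 (SE 0.15), or -0.03 without control 1. For 12 genes of the citric acid cycle it was -0.02, with suclg2, of succinyl-CoA synthetase, at 0.15 (SE 0.09) and idh3g, of isocitrate dehydrogenase, at 0.10 (SE 0.09). Glycolysis, which makes ATP outside mitochondria, had a median of 0.0003 over 22 genes, with the aldolase gene aldoca at -0.60 (SE 0.52), or -0.14 without PEA 3 and -1.16 without PEA 2, and the phosphofructokinase gene pfkla at 0.09 (SE 0.09). Several of these lists shared the library pattern of the nuclear members. Control 1 was the highest control library for 63 of 64 mitochondrial ribosomal genes, 18 of 20 import genes and 32 of 35 assembly factors, and PEA 2 the highest PEA library for 60, 16 and 31 of them. In the same order the numbers were 17 and 12 of 22 for glycolysis and 8 and 9 of 12 for the citric acid cycle. They were 12 and 9 of 20 for mitochondrial transcription and RNA stability. Epithelial markers had 4 and 2 of 5 and brain neuron markers 1 and 5 of 6. Over all genes the shares were 38.1% and 32.8%. Regulators did not share the pattern to that extent, with 3 and 0 of 7, nor did the markers of olfactory sensory neurons, with 3 and 1 of 10. Among these neuron markers adcy3b, gnal and trpc2b were lowest in control 1 among controls and in PEA 2 among PEA. In contrast, gng13b, cnga4 and stoml3b were highest in control 1 among controls. The part of neurons in the pattern was not tested.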

How the data were processed

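RNA was sequenced from 3 control and 3 PEA libraries, grouped by their labels. Upstream, the authors ran FastQC 0.11.9 and Trim Galore 0.6.4 on the reads, mapped these by Bowtie2 (default settings) on the Zv9 build, and obtained per-gene counts by HTSeq 0.11.2. Which annotation release, strand setting and handling of multiple alignments they used is not given in the sources used here. Raw counts as deposited by the authors were the only values used. The table's scaled values, means and fold changes, made by the authors for their own comparison with DESeq2 1.24, were not used.

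All genes were fitted with edgeR 4.0.16 in R 4.3.3 (TMM factors, filterByExpr, quasi-likelihood test, condition only, Benjamini-Hochberg over 20628 genes), with an adjusted p under 0.05 as a call. CPM uses TMM-adjusted library sizes. The SE is the log2 fold change divided by the square root of F. Shares and ratios were compared by exact permutation over 6 libraries. The scripts were checked on simulated counts. DESeq2 1.42.0 and other settings were alternatives. Replicate libraries differed by a chi-square of 14.9 to 57.2 per gene, so each counted as 1. Library totals of 43590575 to 49085973 counts make counting error small for all but the rarest members; p-values measure the spread between these libraries, which may be partly technical.

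Members and lists were chosen with earlier results of these data known. Named genes were all mitochondrial members. Per complex they were also the 3 nuclear members of highest CPM, the 2 of lowest p, the 1 of lowest CPM and isoform pairs. In each other list they were the 2 of lowest p. No such rule covered the single cell type markers named, such as adcy3b, gnal, trpc2b, gng13b, krt5 and slc12a10.2. Genes ndufs8b, sdhdb, atp5j, ATP5J (2 of 3) and fkbp5 were chosen after their values were seen. Of the member identifiers, 100 of 103 were found in a current name table. Markers of other cell types were summed as well: the sums were 119 to 179 and 141 to 166 CPM for red blood cells, 147 to 199 and 158 to 191 for neutrophils and 354 to 380 and 365 to 405 for brain neurons, in control and PEA. Most of the neutrophil sum came from mmp9, at 126 to 178 CPM over all libraries, beside 2.49 to 5.19 for mpx. Most of the brain neuron sum came from snap25a, at 194 to 233 CPM, and slc17a6b, at 144 to 160. There gad1b was at 0.678 to 1.49 CPM and gfap at 0.318 to 0.651. Neither sum gives the amount of these cells. Sequences were not used here.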

Additional observations from a re-analysis of the deposited data

How the results depend on the processing

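The count of members called stayed at 0 with DESeq2, with its size factors in edgeR, with library sizes that leave out the mitochondrial genes, without the low-count filter, with at least 10 counts in every library, with the replicate number as a block and with each library left out. Over all genes, DESeq2 called 5, the libraries numbered 2 and 3 alone called 1, and leaving out 1 library gave 0 to 1; the cause was not tested. With the replicate block 0 genes were called. Same-numbered libraries had deviations correlated at 0.17, -0.15 and 0.14, and control 2 correlated best with PEA 3 (0.24). With so few libraries per group such correlations cannot exclude a pairing by number, which the sample titles would allow. The main fit did not use the number, and the block fit did. Leaving out 1 library gave differences of 0.715 to 1.93 percentage points for the mitochondrial share and 0.19 to 0.39 for the log2 ratio, the lowest without PEA 2. Using only the libraries numbered 2 and 3 moved the nuclear complex I median to 0.19 and turned the log2 fold changes of uqcrfs1 to 0.0317, cox8b to 0.0485, cyc1 to 0.11, cycsb to 0.15, yy1b to 0.0019, mrpl20 to 0.0157 and timm8a to 0.0166. Leave-one-out values changed sign for uqcrfs1 (-0.18 to 0.0374), cyc1 (-0.11 to 0.0870), cycsb (-0.13 to 0.14), mt-nd3 (-0.00707 to 0.23) and uqcrc2a (-0.00766 to 0.16). These fits rest on fewer libraries. Depth limits the values of the rarest members, such as ATP5J (3 of 3), at 10 to 53 counts.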

Other observations

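Some subunit genes carry an older name in the table and fell outside the names used. Current symbols identify C24H11orf65 as NDUFB4 of complex I, and si:ch211-194i10.5, zgc:193541 and USMG5 as atp5mf, atp5mj and atp5md of complex V, while atpif1a and atpif1b encode inhibitors of ATP synthase. Their log2 fold changes ran from -0.01 to 0.11, and all 6 were highest in control 1 among controls and in PEA 2 among PEA. CPM of USMG5, with the largest of these values, was 80.4, 57.4 and 56.5 in control and 62.6, 77.3 and 70.01 in PEA, which overlap.

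Taken by library number, the mitochondrial share differed between PEA and control by 1.25, 2.88 and 0.338 percentage points for numbers 1 to 3, and the log2 ratio by 0.43, 0.47 and 0.03. Number 3 thus showed little of the difference on either measure. The sample titles share these numbers between the groups, but whether they pair the libraries is not stated.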
